A study of Mus musculus with 11 samples.

Results

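The kynurenine pathway and the genes that make and spend nicotinamide adenine dinucleotide (NAD) were examined in the colon of germ-free mice and of mice given a human microbiota. The set held 9 genes chosen by name, *Ido1*, *Afmid*, *Kmo*, *Kynu*, *Haao*, *Qprt*, *Naprt*, *Nampt* and *Cd38*, among 43346 genes in the count table. Polyadenylated RNA of colonic tissue was sequenced with 101 bp paired-end reads. The 5 germ-free and the 6 humanized animals were male Swiss Webster mice, studied at 8 to 10 weeks of age. They were housed singly in open-top cages placed inside isolators and fed an autoclaved diet. Humanized animals were made from germ-free mice, gavaged at 4 to 5 weeks of age with 300 μL of stool suspension, after which the microbiota had 4 to 5 weeks to settle. All stool came from a single human donor, so the humanized group represents that microbiota alone. No genetic modification is named for either group, and no mice with a conventional mouse microbiota were among these samples.

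Tryptophan that is not built into protein or turned into serotonin is mostly degraded along the kynurenine pathway. IDO1 opens the ring of tryptophan, the formamidase AFMID releases kynurenine, and KMO, KYNU and HAAO carry the product on to quinolinic acid, which QPRT feeds into NAD. NAD is also made from dietary nicotinic acid by NAPRT and recycled from nicotinamide by NAMPT, and CD38 is an ectoenzyme that breaks NAD down. In the gut, IDO1 is known as an enzyme induced by interferon gamma in epithelial and myeloid cells.

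Of the 9 genes, 2 were higher in humanized mice, *Ido1* and *Cd38*, which stand at the entry to the pathway and at the breakdown of NAD. None was lower. The enzymes tested between these points and both enzymes that make NAD from vitamin B3 did not pass the test. The lowest unadjusted p of these 6 genes was 0.323, for *Naprt*, and neither edgeR's quasi-likelihood test nor DESeq2 called any of them. The low-expression filter kept 19863 genes and 8 of the 9, leaving out *Qprt*. Groups were compared by the exact test of edgeR, with FDR values (Benjamini–Hochberg) adjusted over all tested genes and a threshold of 0.01. A positive log2-fold change (LFC) means a higher level in humanized mice. Of all tested genes, 19.3% passed this test, 9.2% higher and 10.1% lower in humanized mice. A count of 2 called among 8 is close to the share called in either direction among all genes. The median LFC was 0.19 over the 8 genes and 0.0084 over all tested genes. Germ-free and humanized values were separate for 2 of the 8 genes, against 18.4% of all tested genes.

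Between 49097005 and 64148538 reads were counted per germ-free library and between 39125290 and 54219854 per humanized library. The epithelial marker list was abundant in every mouse, with summed values of 8643 to 11321 CPM (counts scaled to library size) in germ-free and 9721 to 13380 CPM in humanized mice. The smooth muscle list was called lower for 8 of 8 genes, the fibroblast list for 5 of 6 and the neuron and glia list for 6 of 6. The B cell and plasma cell list was called higher for 3 of 7 genes and the T cell list for 4 of 7. In bulk tissue, fewer cells of a type and less RNA per cell cannot be told apart. The layers of the colon wall that each sample held are not described in the sources used here. Levels are given as RPKM, read counts scaled to gene length and library size, after TMM normalization. A mean is followed by its SD, over n = 5 mice in the germ-free and n = 6 in the humanized group.

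**Figure D1:**
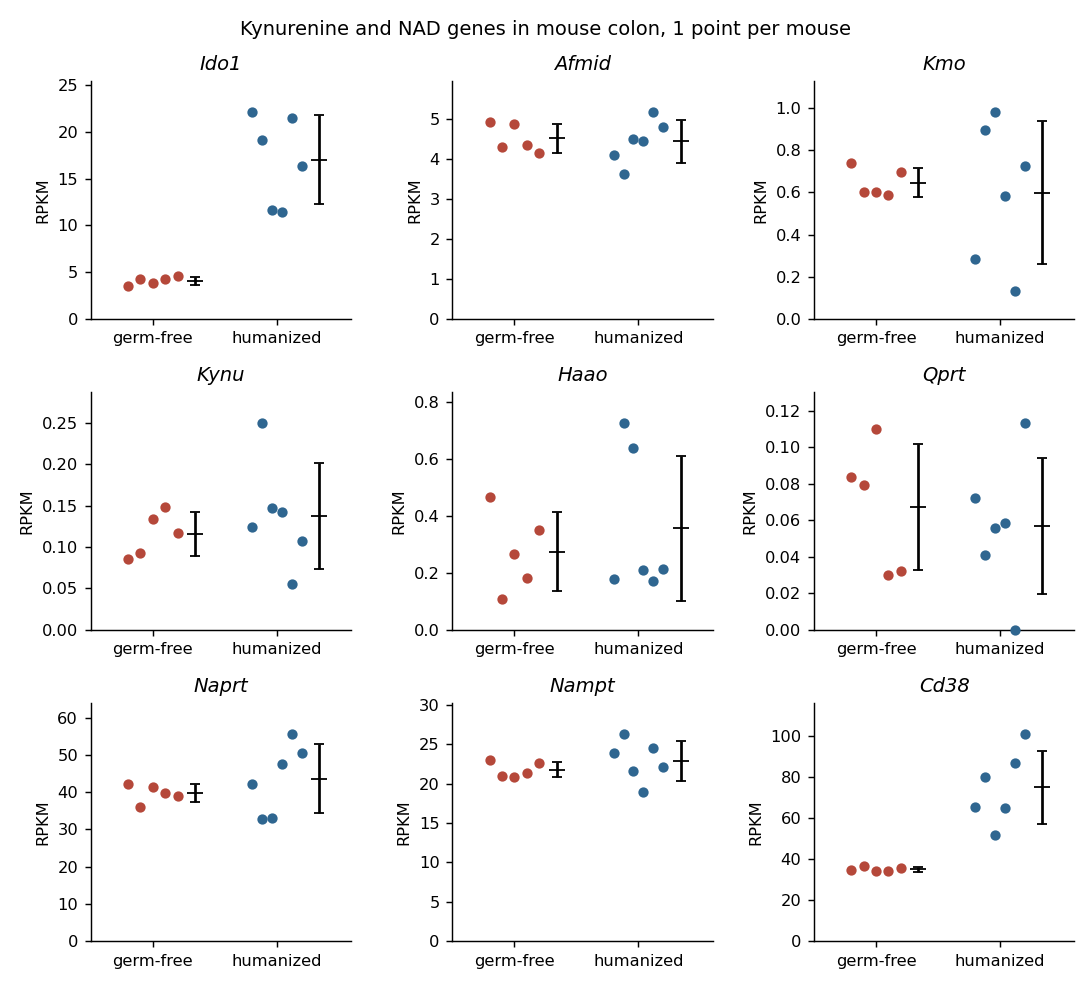
Level of each of the 9 genes in RPKM on a linear axis from 0, with 1 point per mouse (red, germ-free; blue, humanized) and the mean with its SD as a black bar beside each group. The humanized mice lie above all germ-free mice for *Ido1* (11.4 to 22.1 against 3.46 to 4.53) and *Cd38* (51.8 to 100.9 against 33.9 to 36.4), and the groups overlap for the other 7 genes.

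*Ido1* (ENSMUSG00000031551, chr8:24584136-24597009 on mm10) encodes the enzyme that opens the ring of tryptophan, the entry step of the pathway. Its level in the 5 germ-free mice was 3.46, 4.21, 3.87, 4.20 and 4.53 RPKM. In the 6 humanized mice it ran from 11.4 to 22.1 RPKM with a median of 17.8. Every humanized mouse was above every germ-free mouse, and the lowest humanized values were those of mice 3 and 4. The mean rose from 4.05 ± 0.407 to 17.0 ± 4.73 RPKM, an LFC of 2.07 (SE 0.19, FDR = 7.16e-23 by edgeR's exact test), or 4.20-fold. An exact permutation test that used all 462 ways to split the mice gave a two-sided p of 0.00216, the smallest it can give with 5 mice against 6. By FDR the gene stood at place 44 of all tested genes, and by the size of its LFC at place 422. Its level moved from percentile 49.7 to percentile 80.5 of the tested genes. Humanized mice 1 and 5, highest in *Ido1* at 22.1 and 21.5 RPKM, had the lowest fibroblast sums of their group (466 and 123 CPM). Mice 3 and 4, lowest at 11.6 and 11.4 RPKM, had the highest (987 and 741 CPM), against 1338 to 1800 CPM in germ-free mice. The endothelial list was likewise lowest in mice 5 and 1 and highest in mice 3 and 4 of the humanized group. In humanized mice 1 to 6 the epithelial list summed to 12728.5, 10966.5, 9721.2, 11736.7, 13380.4 and 13195.7 CPM. In these mice the macrophage and dendritic cell list without *Cd14*, its most counted gene, summed to 71.9, 135, 167, 119, 29.4 and 106 CPM. All these lists are named here after their values were seen, and the part of these cells in the level of *Ido1* was not tested. The raw data behind the *Ido1* levels were 398 to 578 counts per germ-free mouse and 812 to 1867 per humanized mouse.

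The next 4 enzymes of the pathway did not pass the test. *Afmid* (chr11:117825924-117839908), whose product turns formylkynurenine into kynurenine, was at 4.93, 4.30, 4.88, 4.35 and 4.14 RPKM in germ-free mice. In humanized mice it ran from 3.64 to 5.18 RPKM with a median of 4.48, so the groups overlapped along most of their range. Its LFC was −0.02 (SE 0.10, FDR = 0.918 by edgeR's exact test), with a 95% interval (1.96 SE) from −0.21 to 0.16. Of the 5 tested kynurenine enzymes in the set, *Afmid* had the narrowest interval. In the GENCODE M21 annotation, 44.2% of the exonic bases of *Afmid* are shared with *Gm20708*, a gene on the same strand, and 2.35% with *Tk1* on the opposite strand. Reads from the bases shared with *Gm20708* cannot be told apart by strand. Those from the bases shared with *Tk1* cannot either, because the library kit does not mark strand. *Gm20708* had an LFC of 0.05 (FDR = 0.779) and *Tk1* of 0.11 (FDR = 0.680) by the same test.

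*Kmo* (chr1:175620381-175662116) encodes the hydroxylase of kynurenine, known from macrophages and other myeloid cells and from liver and kidney. Germ-free mice were close together at 0.742, 0.603, 0.601, 0.590 and 0.6995 RPKM. The humanized mice spread from 0.129 to 0.982 RPKM with a median of 0.654, both below and above the germ-free range. The means were 0.647 ± 0.0692 and 0.600 ± 0.338 RPKM, and the coefficient of variation was 10.7% in germ-free and 56.4% in humanized mice. With an LFC of −0.11 (SE 0.39, FDR = 0.881 by edgeR's exact test), the 95% interval ran from −0.88 to 0.66. The lowest values were those of humanized mouse 5 (0.129 RPKM, the group's lowest count of 29) and humanized mouse 1 (0.282 RPKM). Without mouse 5 the LFC was 0.10, without mouse 1 it was 0.04, and neither passed the test. The span of *Kmo* overlaps that of *Fh1*, which was called higher (LFC 0.42, FDR = 6.40e-05), but the exons of *Kmo* share no base with another gene in GENCODE M21.

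Marker lists of non-epithelial cells differed between the same mice. The macrophage and dendritic cell list summed to 186 to 224 CPM in germ-free mice and 144 to 247 CPM in humanized mice, with its 2 lowest values in humanized mice 5 (144 CPM) and 1 (169 CPM). Of its 11 genes, 1 was called higher (*Cd14*) and 1 lower (*Mrc1*), and none was at 0 in all mice. Without *Cd14*, its most counted gene, the list summed to 29.4 CPM in mouse 5 and 71.9 CPM in mouse 1, against 106 to 167 CPM in the other humanized mice and 128 to 168 CPM in germ-free mice. The endothelial list summed to 10.3 CPM in humanized mouse 5 and 31.7 CPM in humanized mouse 1, against 51.8 to 77.3 CPM in the other humanized mice and 84.3 to 98.0 CPM in germ-free mice. Fibroblast markers were also lowest in these mice, with 123 CPM in mouse 5 and 466 CPM in mouse 1. The epithelial list was at 13380 CPM in mouse 5, its highest value. The part of cell composition in the spread of *Kmo* was not tested.

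*Kynu* and *Haao*, the kynureninase and the dioxygenase that makes the precursor of quinolinic acid, were near the lower end of the measured range. *Kynu* (chr2:43555329-43682715) was at 0.0851, 0.0932, 0.133, 0.148 and 0.116 RPKM in germ-free mice, from 30 to 57 counts. In humanized mice it ran from 0.0548 to 0.250 RPKM with a median of 0.133, from 16 to 57 counts. Its LFC was 0.24 (SE 0.32, FDR = 0.664), and humanized mouse 2 was highest and mouse 5 lowest of all 11 mice. *Haao* (chr17:83831356-83846790) was at 0.467, 0.109, 0.266, 0.183 and 0.351 RPKM in germ-free mice. In humanized mice it ran from 0.172 to 0.727 RPKM with a median of 0.211. Humanized mice 2 and 3, at 0.727 and 0.639 RPKM, stood above all other mice, and the remaining 4 humanized mice lay inside the germ-free range. Its LFC was 0.36 (SE 0.49, FDR = 0.653), with a 95% interval from −0.60 to 1.32. At 7 to 37 counts per mouse and this spread, the interval includes a 2-fold increase. The LFC of *Haao* was 0.032 without humanized mouse 2, 0.10 without humanized mouse 3 and 0.63 without germ-free mouse 1. Humanized mice 2 and 3 also had the highest sums of the T cell list (30.5 and 28.9 CPM) and of the B cell and plasma cell list (1055 and 885 CPM). They had the highest *Kmo* and the highest sums of the macrophage and dendritic cell list (237 and 247 CPM). Without *Cd14* that list summed to 135 and 167 CPM in these 2 mice, highest of the humanized group but within the germ-free range of 128 to 168 CPM. The part of these cells in the values of *Haao* was not tested. Hepatocyte markers, of interest because these enzymes are abundant in liver, summed to 1.06 to 5.99 CPM in germ-free and 1.20 to 2.60 CPM in humanized mice, and neither of the 2 that were tested, of 5 listed, was called.

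**Figure D2:**
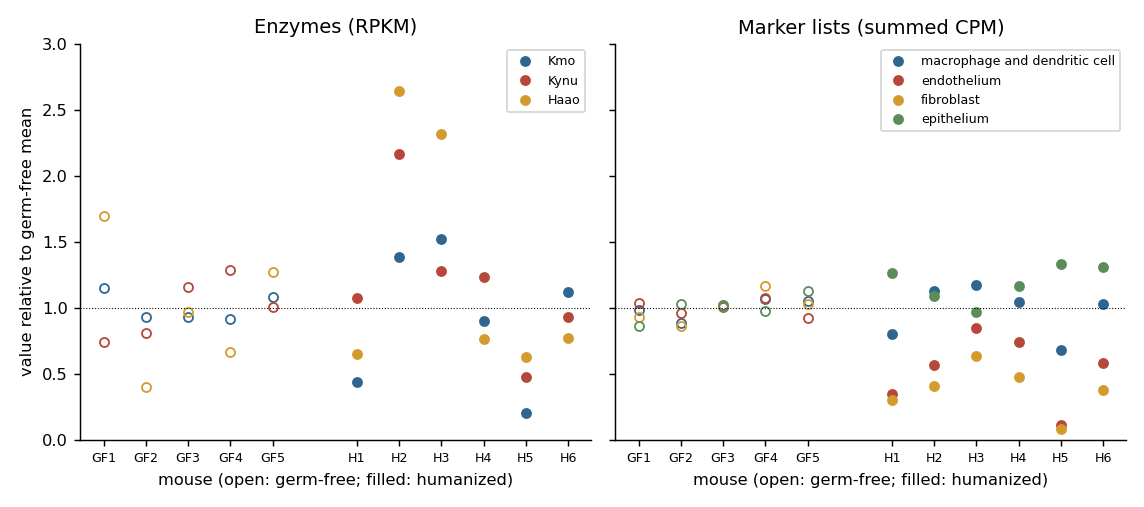
Left, RPKM of *Kmo*, *Kynu* and *Haao* in each mouse, and right, summed CPM of 4 marker lists, both divided by the germ-free mean so that 1 (dotted line) is the germ-free mean; GF, germ-free mice (open circles); H, humanized mice (filled circles). Humanized mouse 5 is lowest in *Kmo* and in the macrophage, endothelial and fibroblast lists, and humanized mice 2 and 3 are highest in *Haao*.

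*Qprt* (chr7:127107114-127122226) encodes the enzyme that joins quinolinic acid to NAD synthesis. It was counted only 14, 11, 17, 5 and 6 times in the germ-free mice and 0 to 15 times in the humanized mice with a median of 6.5. These are levels of 0.0672 ± 0.0347 and 0.0567 ± 0.0371 RPKM, and the groups overlapped throughout. With the low-expression filter removed, its LFC was −0.23 (FDR = 0.921 by edgeR's exact test). A count of 0, seen in humanized mouse 5, allows up to 3 counts by counting error alone. No change in *Qprt* was detectable at this depth.

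Both enzymes that make NAD from vitamin B3 were abundant and had narrow intervals around no change. *Nampt* (chr12:32820335-32853369), the rate-limiting enzyme of recycling from nicotinamide, was at 23.0, 21.01, 20.8, 21.4 and 22.6 RPKM in germ-free mice. In humanized mice it ran from 18.9 to 26.3 RPKM with a median of 23.0, on both sides of the germ-free values. Its LFC was 0.07 (SE 0.08, FDR = 0.604 by edgeR's exact test) and the 95% interval from −0.08 to 0.22. *Naprt* (chr15:75890964-75894481), which starts the route from nicotinic acid, was at 42.2, 35.9, 41.5, 39.7 and 39.1 RPKM in germ-free mice. In humanized mice it ran from 32.7 to 55.6 RPKM with a median of 45.0. Humanized mice 2 and 3 were below the germ-free range, and mice 4, 5 and 6, and by a small margin mouse 1 (42.3 RPKM), were above it. The LFC of *Naprt* was 0.14 (SE 0.13, FDR = 0.512 by edgeR's exact test), with a 95% interval from −0.12 to 0.39. Both signs depended on the scaling and were negative with total-count normalization or scaling to the epithelial list. In GENCODE M21, 11.8% of the exonic bases of *Naprt* are shared with *Eef1d*, which had an LFC of 0.15 (FDR = 0.0656). The ratio of *Nampt* to *Naprt* per length was 0.503 to 0.585 in germ-free mice and 0.396 to 0.803 in humanized mice.

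*Cd38* (chr5:43868809-43912375) encodes an ectoenzyme that splits NAD and makes cyclic ADP-ribose, and it is also a surface marker of lymphoid cells, among them plasma cells. The 5 germ-free mice were within a narrow range, at 34.5, 36.4, 33.9, 33.97 and 35.7 RPKM. Humanized mice ran from 51.8 to 100.9 RPKM with a median of 72.6. Every humanized mouse was above every germ-free mouse, with mouse 3 lowest and mouse 6 highest. The mean rose from 34.9 ± 1.09 to 74.9 ± 17.7 RPKM, an LFC of 1.10 (SE 0.14, FDR = 1.20e-11 by edgeR's exact test), or 2.15-fold. The exact permutation test gave a two-sided p of 0.00433. In percentiles of the tested genes its level moved from 91.5 to 95.9.

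Markers of the lymphoid cells that can carry CD38 were higher in humanized mice too. The B cell and plasma cell list summed to 23.4 to 111 CPM in germ-free and 153 to 1055 CPM in humanized mice, and the T cell list to 9.46 to 12.3 CPM and 13.6 to 30.5 CPM. In humanized mice 1 to 6, *Cd38* was at 65.2, 80.0, 51.8, 65.0, 86.8 and 100.9 RPKM, and the B cell and plasma cell list at 353, 1055, 885, 578, 153 and 347 CPM. In the same mice the T cell list was at 13.6, 30.5, 28.9, 17.6, 19.4 and 16.9 CPM. The order of either list over the mice differed from that of *Cd38*. *Jchain*, a gene of plasma cells, made up 94.2% to 96.8% of the B cell and plasma cell sum in humanized mice. The other 6 genes of that list summed to 3.42 to 7.72 CPM in germ-free and 7.66 to 51.5 CPM in humanized mice. The absorptive colonocyte list was also higher in every humanized mouse, with 9129 to 16479 CPM against 3499 to 6006 CPM. Of its 6 genes 3 were called, all higher. *Car1* alone made up 84.1% to 86.0% of the sum in humanized mice. Without *Car1* the list summed to 828 to 1344 CPM in germ-free and 1302 to 2596 CPM in humanized mice. Humanized mice 3 and 4, at 1302 and 1308 CPM, were then below germ-free mouse 5, so the groups overlapped. Over the humanized mice, both the sum and the sum without *Car1* ranked, from lowest to highest, as mouse 3, 4, 1, 2, 5 and 6, the order of *Cd38*. This match over 6 mice is described after the values of all marker lists were seen. The cells that carried the *Cd38* reads were not identified, and the part of these lists in the change was not tested. *Gm16015*, a transcript within the span of *Cd38*, was called higher with an LFC of 1.05 (FDR = 0.0020), and in GENCODE M21 the exons of *Cd38* share no base with another gene. The remaining neighbours, *Gm16014* within the span of *Cd38*, *Gdap10* within that of *Nampt*, and *Gm7879* and *Opn3* within 2000 bases of *Cd38* and *Kmo*, were not called (FDR from 0.244 to 0.706). *Bst1*, the paralog of *Cd38*, was at 0.204 RPKM in germ-free and 0.186 RPKM in humanized mice with an LFC of −0.11 (FDR = 0.891).

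The 2 promoters shown are those of the called NAD glycohydrolase and of the salvage enzyme that was not called, each with 250 bases before and 50 bases after the start given by RefSeq on GRCm38.p6. RefSeq promoters were matched for 6 of the 9 genes, *Afmid*, *Kmo*, *Haao*, *Qprt*, *Nampt* and *Cd38*. Capitals mark matches on either strand to TTCNNNGAA, the interferon gamma activated site (GAS), to the interferon-stimulated element (ISRE, GAAA, any 2 bases and GAAA), to CACGTG, the E-box of clock and MYC factors, or to GCGTG, the core of the site bound by the aryl hydrocarbon receptor (AHR). The 2 sequences lie at chr5:43868559-43868858 and chr12:32820085-32820384, both on the plus strand.
Cd38 promoter: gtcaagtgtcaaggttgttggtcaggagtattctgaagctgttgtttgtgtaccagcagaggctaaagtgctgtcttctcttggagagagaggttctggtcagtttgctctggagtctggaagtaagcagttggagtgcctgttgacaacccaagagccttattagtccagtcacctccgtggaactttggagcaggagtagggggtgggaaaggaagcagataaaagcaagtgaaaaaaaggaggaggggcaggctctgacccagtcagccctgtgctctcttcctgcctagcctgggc
Nampt promoter: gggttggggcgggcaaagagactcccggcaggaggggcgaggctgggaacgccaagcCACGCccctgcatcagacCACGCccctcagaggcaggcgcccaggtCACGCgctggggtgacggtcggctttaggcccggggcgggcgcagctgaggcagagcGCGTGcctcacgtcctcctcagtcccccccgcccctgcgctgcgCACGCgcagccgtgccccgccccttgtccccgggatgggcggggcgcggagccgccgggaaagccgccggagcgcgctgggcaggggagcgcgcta
The *Cd38* sequence held none of the 4 motifs and 51.7% of its bases were G or C. The *Nampt* sequence held 5 matches to GCGTG and none to the other motifs, and 76.3% of its bases were G or C. Among the other matched promoters, *Haao* held 1 match to GCGTG at −137 and *Qprt* 1 match to TTCNNNGAA at −19 from the start. Of 32851 promoters of the same length, 32.4% held GCGTG, 8.3% TTCNNNGAA, 3.44% the ISRE and 7.15% CACGTG. These matches describe letters within the windows alone.

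The order of the levels per length differed between the groups at its top. In germ-free mice *Naprt* was above *Cd38* in 4 of 5 mice, with overlapping ranges, followed by *Nampt*. In humanized mice *Cd38* was above *Naprt* in 6 of 6 mice, although the ranges over mice overlapped, again followed by *Nampt*. *Ido1* was below *Afmid* in 4 of 5 germ-free mice, and the ranges overlapped, whereas it was above *Afmid* in all 6 humanized mice with separate ranges. The ratio of *Ido1* to *Afmid* was 0.702 to 1.09 in germ-free and 2.57 to 5.41 in humanized mice. The ratio of *Ido1* to *Nampt* was 0.151 to 0.201 and 0.539 to 0.928. These ratios are descriptions and were not tested. *Kmo*, *Haao*, *Kynu* and *Qprt* followed in that order in both groups, with overlapping ranges from *Haao* down to *Qprt* in germ-free mice and from *Kmo* down to *Qprt* in humanized mice. The deposited lengths equal the summed exons of GENCODE M21 for 5 of the 9 genes. They are shorter for *Haao*, *Naprt*, *Nampt* and *Cd38*. With the longer M21 length *Haao* would be at 0.0719 and 0.0931 RPKM, below *Kynu*, and *Cd38* at 27.0 and 58.1 RPKM. Lengths do not enter the LFC or its test.

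**Figure D3:**
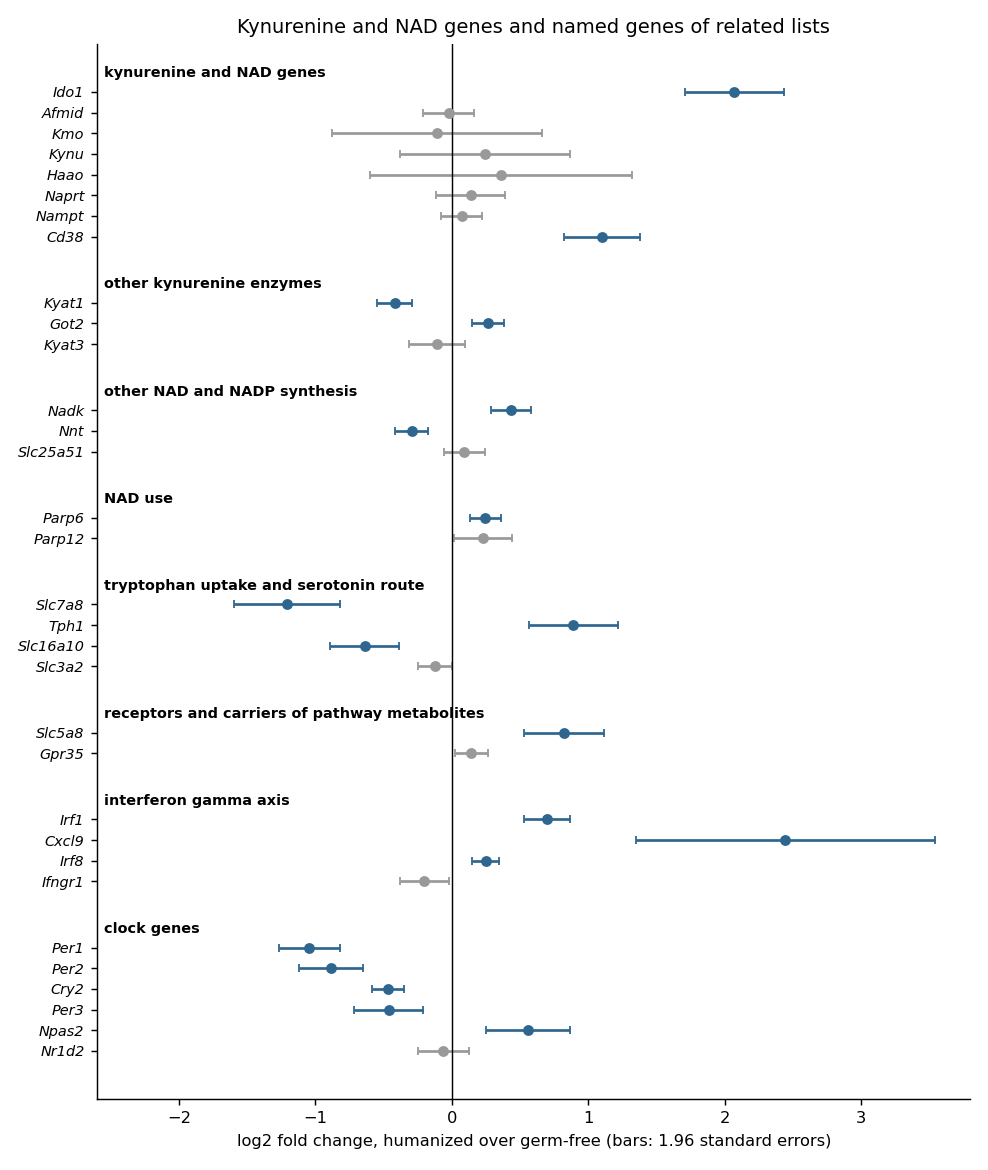
LFC (humanized over germ-free) for the 8 tested genes of the set and for the named genes of 7 related lists, with bars of 1.96 standard errors of edgeR's quasi-likelihood fit (blue, FDR below 0.01 in the exact test; grey, not called). *Ido1* (2.07) and *Cd38* (1.10) are the only called genes of the set, and *Kmo*, *Kynu* and *Haao* have the widest bars of the set.

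Other enzymes of kynurenine turnover were called in both directions. Of 8 listed, 4 were tested, 1 was higher and 1 lower, with a median LFC of −0.12. *Kyat1* (listed as *Ccbl1*), a transaminase that turns kynurenine into kynurenic acid, fell from 9.56 ± 0.464 to 7.14 ± 0.518 RPKM (LFC −0.42, SE 0.06, FDR = 1.78e-05). *Got2*, a mitochondrial aspartate transaminase with the same side activity, rose from 18.8 ± 0.906 to 22.6 ± 1.62 RPKM (LFC 0.27, SE 0.06, FDR = 0.0026), and this call was lost in 7 of the 23 settings examined, among them without germ-free mouse 1 or 4 or humanized mouse 1 and with total-count normalization (LFC 0.08) or scaling to the epithelial list (LFC 0.016). *Kyat3* was at 3.02 and 2.81 RPKM (LFC −0.11, FDR = 0.623). The liver enzyme *Tdo2* was at 26 to 58 counts per germ-free and 7 to 36 per humanized mouse (LFC −0.14, FDR = 0.833). *Ido2*, the paralog of *Ido1*, was at 2 to 28 and 0 to 4 counts and was not tested. *Aadat* and *Aldh8a1* were at 0 to 10 counts in every mouse and were not tested. *Acmsd*, which diverts the pathway away from NAD, was at 1 to 7 counts in germ-free and 6 to 9 in humanized mice and was not tested.

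Of 10 further genes of NAD and NADP synthesis, 9 were tested, 1 was higher and 1 lower, with a median LFC of 0.04. *Nadk*, the cytosolic kinase that makes NADP from NAD, rose from 62.8 ± 5.46 to 84.9 ± 6.52 RPKM (LFC 0.43, SE 0.08, FDR = 9.38e-06), with no overlap between the groups. The call of *Nadk* was lost with scaling to the epithelial list (LFC 0.19, FDR = 0.0903). *Nnt*, the mitochondrial transhydrogenase, fell from 7.32 ± 0.189 to 5.96 ± 0.543 RPKM (LFC −0.30, SE 0.06, FDR = 0.0013). The mitochondrial NAD carrier *Slc25a51* was at 18.2 and 19.3 RPKM (LFC 0.09, FDR = 0.499). *Nmnat1*, the nuclear enzyme on which the routes to NAD converge, had an LFC of 0.37 and values that did not overlap but missed the threshold (FDR = 0.0113). It was called in 3 of 23 settings, among them the quasi-likelihood test (FDR = 0.0098) and DESeq2 (FDR = 6.93e-04). It is named after its values were seen.

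In a list of NAD use and nicotinamide turnover, apart from *Cd38*, 25 of 25 genes were tested, 1 was higher and none lower, with a median LFC of 0.04. The list held the sirtuins, the ADP-ribosyltransferases of the PARP family, *Bst1*, *Sarm1* and *Nnmt*, which methylates nicotinamide and does not itself use NAD. The called gene was *Parp6*, from 10.5 ± 0.308 to 12.4 ± 0.819 RPKM (LFC 0.24, SE 0.06, FDR = 0.0080), and it was called in 7 of 23 settings, with an LFC of −0.0101 when scaled to the epithelial list. The most abundant of the others, *Parp12*, was at 19.1 and 22.4 RPKM (LFC 0.23, FDR = 0.135). *Cd38* thus had a larger LFC than any tested gene of this list, whose values ran from −1.001, for *Nnmt*, to 0.34.

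The supply of tryptophan and its other outlet, serotonin, showed calls in both directions. Of 6 genes tested, 1 was higher and 2 were lower, with a median LFC of −0.24. *Tph1*, the enzyme of serotonin synthesis in enterochromaffin cells, rose from 6.23 ± 0.831 to 11.5 ± 2.65 RPKM (LFC 0.89, SE 0.17, FDR = 7.92e-06), and the groups overlapped through humanized mouse 6 at 6.50 RPKM. *Slc7a8*, a carrier of neutral amino acids, fell from 1.002 ± 0.241 to 0.434 ± 0.0989 RPKM (LFC −1.21, SE 0.20, FDR = 2.70e-06). *Slc16a10*, a carrier of aromatic amino acids, fell from 4.24 ± 0.346 to 2.72 ± 0.566 RPKM (LFC −0.64, SE 0.13, FDR = 1.41e-04). *Slc3a2*, the heavy chain of such carriers, was at 15.7 and 14.4 RPKM (LFC −0.12, FDR = 0.261).

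Of 5 receptors and carriers of pathway metabolites, 1 was higher and none lower. *Slc5a8*, a carrier of nicotinate and short-chain fatty acids, rose from 35.9 ± 5.57 to 63.4 ± 14.1 RPKM (LFC 0.82, SE 0.15, FDR = 2.96e-06). *Gpr35*, a receptor activated by kynurenic acid, was at 6.96 and 7.68 RPKM (LFC 0.14, FDR = 0.166). *Ahr*, whose product binds kynurenine among other ligands, had an LFC of −0.23 (FDR = 0.0377) and is named after its values were seen.

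Genes of the interferon gamma axis, which is known to induce *Ido1*, were tested in 12 of 13 cases. Of these, 3 were higher and none lower, with a median LFC of 0.30. *Irf1*, a transcription factor of this response, rose from 28.5 ± 1.74 to 46.1 ± 5.89 RPKM (LFC 0.70, SE 0.09, FDR = 9.51e-11), without overlap. *Cxcl9*, a chemokine induced by interferon gamma, rose from 0.188 ± 0.0890 to 1.03 ± 0.611 RPKM (LFC 2.44, SE 0.56, FDR = 2.43e-04). Its values overlapped through humanized mouse 5 at 0.101 RPKM, the mouse with the lowest sum of the macrophage and dendritic cell list. The part of the interferon gamma axis in the level of *Ido1* was not tested. *Irf8* rose from 10.2 ± 0.306 to 12.1 ± 0.708 RPKM (LFC 0.25, SE 0.05, FDR = 0.0020), and this call was lost in 7 of 23 settings, among them without germ-free mouse 3, 4 or 5, and its LFC was −0.0053 when scaled to the epithelial list. The receptor chain *Ifngr1* was at 80.2 and 69.7 RPKM (LFC −0.20, FDR = 0.126). *Ifng* itself was counted 0 to 7 times per mouse in the germ-free group and 0 to 4 times in the humanized group and was not tested.

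**Figure D4:**
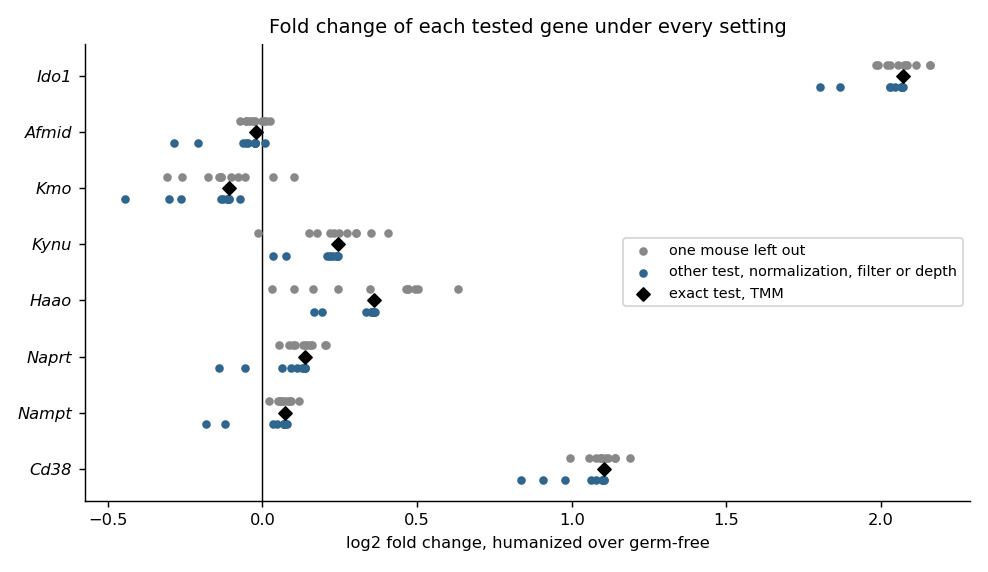
LFC of the 8 tested genes with each mouse left out in turn (grey), with another test, normalization, filter, scaling or depth (blue), and in the exact test with TMM (black diamonds). *Ido1* stays between 1.80 and 2.16 and *Cd38* between 0.83 and 1.19, and *Afmid*, *Kmo*, *Kynu*, *Naprt* and *Nampt* have values on both sides of 0.

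*Ido1* and *Cd38* were called higher in all 22 alternatives, with the largest FDR at 0.0011 for *Ido1* and 0.0017 for *Cd38*. The LFC of *Ido1* lay between 1.80 and 2.16 and that of *Cd38* between 0.83 and 1.19, and leaving out any mouse kept *Ido1* between 1.98 and 2.16 and *Cd38* between 0.99 and 1.19. None of the other 6 tested genes was called in any alternative that gave it a value, with the smallest FDR among them at 0.106 for *Afmid*. The labels and methods name no sequencing batch, so no values within batches could be given.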

How the data were processed

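RNA of colonic tissue from 5 germ-free and 6 humanized mice was analysed, with groups taken from the sample labels. The authors converted base calls with bcl2fastq 2.17.1.14, aligned reads to mm10 (TopHat2 2.1.0, with Bowtie2 2.2.3), and deposited whole-number counts per gene from featureCounts (Subread 1.4.6-p5), without normalization. The deposited table also gives gene positions and lengths. How the lengths were made is not given in the sources used here.

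The whole table was fitted with edgeR 4.0.16 (R 4.3.3), following the study's methods. The steps were filterByExpr (minimum count 10, minimum total count 15), TMM, estimateDisp and the exact test, with Benjamini–Hochberg FDR values and a threshold of 0.01. Standard errors came from the quasi-likelihood fit, whose tests, with DESeq2 1.42.0, were alternatives. RPKM used TMM-normalized libraries and the deposited lengths. Intervals and floors cover the spread between these mice or counting error only. Mice of a group differed by more than sampling noise, with a mean chi-square per gene from 19.8 to 122, so none was counted as a duplicate. The labels number the mice of both groups, and the correlations of deviations between same-numbered mice showed no pairing. Separate animals were sampled, so p-values measure the spread between animals. The number of isolators and the isolator of each mouse are not given, so isolator cannot be told apart from the groups. No sham gavage of germ-free mice is described, so the gavage itself cannot be told apart from the microbiota.

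The 9 genes and all lists were chosen with earlier results of these data known. Named beside them are, per list, genes at FDR below 0.01 (at most 6) and the most abundant other gene, genes overlapping or within 2000 bases of a member of the set, and the 3 genes of most similar pattern. Scripts were tested on simulated data. Alternatives were other tests, normalizations, filters, thresholds, scaling to the epithelial list, thinned counts, a replicate block and leaving out each mouse. Reads were not analysed here.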

Additional observations from a re-analysis of the deposited data

Results flagged for a closer look

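Among 66 groups of 5 or 6 mice examined, 3 held a mouse farther from the others than Dixon's 95% critical value, and chance alone gives about 1 in 20. *Slc7a8* was at 1.43 RPKM in germ-free mouse 4, against 0.933 in the nearest germ-free mouse. *Slc5a8* was at 45.6 RPKM in germ-free mouse 2, against 35.1 in the nearest. *Tph1* was at 6.50 RPKM in humanized mouse 6, against 11.7 in the nearest humanized mouse. No value of the 9 kynurenine and NAD genes stood apart in this way.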

How the results depend on the processing

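Of 175 alternative LFC values of the 8 tested genes, 163 kept their direction and their side of the threshold, and the 12 that changed sign belonged to genes that were not called. *Afmid* was 0.0069 with thinned counts and −0.072 to 0.025 with a mouse left out. *Kmo* ran from −0.31 to 0.10 and *Kynu* from −0.016 to 0.41 with a mouse left out, and *Haao*, with no change of sign, from 0.032 to 0.63. With total-count normalization *Naprt* was −0.057 and *Nampt* −0.12, and with scaling to the epithelial list −0.14 and −0.18. These scalings moved the median LFC of all genes to −0.18 and −0.24, and the split of calls from 1827 higher and 1999 lower to 773 and 3609, and 564 and 3759. The quasi-likelihood test called 2699 genes. *Haao* has no value with at least 10 counts in every mouse.

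The label numbers did not pair the mice, with correlations of deviations of −0.05, −0.13, 0.09, 0.09 and −0.07, and 2 of 5 numbers correlated best with themselves. With the replicate block, *Ido1* had an LFC of 2.03 (FDR = 0.0011 by edgeR's quasi-likelihood test) and *Cd38* of 0.98 (FDR = 0.0017). The quasi-likelihood test called 8 genes of the related lists with the replicate block and 16 without it (17 in the exact test), and 1012 genes in all with it, and the block changed no call of the 8 tested genes. It left 0 calls in the lists of other kynurenine enzymes and other NAD and NADP synthesis, where *Kyat1*, *Got2*, *Nadk* and *Nnt* had been called. In the list of NAD use it left 0 calls and in the interferon gamma axis 1, against 1 and 3 without the block. Counts were low for *Qprt*, *Haao* and *Kynu*, at most 57 in any mouse. With counts thinned to the lowest total, the LFC of *Haao* was 0.36 and that of *Kynu* 0.23. The parts of depth and of the spread between mice in these results were not tested.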

Other observations

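Clock genes, several of which act on *Nampt* transcription in other tissues, were called in both directions. Of 11 tested, 1 was higher and 4 lower in humanized mice, with a median LFC of −0.15. The repressors *Per1* (18.3 ± 2.09 to 8.84 ± 1.504 RPKM, LFC −1.05, FDR = 1.79e-15), *Per2* (9.54 ± 0.9996 to 5.17 ± 0.947 RPKM, LFC −0.88, FDR = 5.97e-10), *Cry2* (LFC −0.47, FDR = 3.41e-08) and *Per3* (LFC −0.46, FDR = 0.0045) fell by edgeR's exact test. *Npas2*, an activator, rose from 2.54 ± 0.558 to 3.74 ± 0.667 RPKM (LFC 0.56, FDR = 0.0073). *Per1*, *Per2* and *Cry2* were called in all 23 settings, *Per3* in 15 and *Npas2* in 9. *Nr1d2* was at 31.4 and 30.1 RPKM (LFC −0.06, FDR = 0.71). The hour of tissue collection is not given in the sources used here, so it cannot be told apart from the groups, and *Nampt* itself had an LFC of 0.07.

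Over all 11 mice, the genes whose log2 CPM was most like that of *Ido1* were *Fam3b*, *Rpl41* and *Eef1g* (Pearson r = 0.991, 0.988 and 0.986). For *Cd38* they were *Slc16a1*, *Sectm1a* and *Naip1* (r = 0.987, 0.985 and 0.985). With group means subtracted they were *Pomp*, *Commd6* and *Gm12043* for *Ido1* (r = 0.960, 0.947 and 0.936), and *Mapk6*, *Pls1* and *Naa30* for *Cd38* (r = 0.963, 0.954 and 0.953). No gene was named for both *Ido1* and *Cd38*, but sets of 3 genes are too small to compare the 2 patterns. These values are the largest of many correlations over 11 mice that share libraries and normalization, and are descriptions.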
